A study of Rattus norvegicus with 14 samples.

Results

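The aorta of normally pregnant rats (Pr) was compared with that of non-pregnant rats (NPr) for all 19357 genes of an Affymetrix Rat Gene 1.1 ST array, with 1 array per animal. The comparison uses 9 of the 14 arrays of the series, 5 from Pr and 4 from NPr rats, and these were the columns of the authors' annotated table whose names end in saline and in NP. All animals were outbred Wistar females that carried a cannula in the jugular vein. Pr rats received 2 ml of saline over 1 h on day 14 of pregnancy and were killed on day 20, and NPr rats were of matching age, received saline in the same way and were killed on diestrus. The other 5 arrays are from pregnant rats with experimental preeclampsia (ExpPE), induced by 1 µg/kg of lipopolysaccharide in the same infusion. The whole abdominal aorta was used, cleaned of surrounding tissue, so the RNA came from all cells of the vessel wall and from whatever adhered to it.

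The labels of the pregnant rats are in conflict, and this bears on every value below. A second deposited table holds the same numbers (largest gap 7.2e-10 on the log2 scale), but in it the 5 arrays called Pr here carry the titles of preeclamptic rats and the 5 arrays called ExpPE here carry the titles of healthy pregnant rats. The 4 NPr arrays have the same label in both. The column names were followed, and the total counts and those of some lists are also given with the groups of the titles. For part of the genes ExpPE values are also given, since they are the Pr values of the other labelling. Most genes and lists below are given with the column names alone.

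The arrays of Pr rats had median log2 intensities of 5.59 to 5.64, and those of NPr rats of 5.58 to 5.63. Sensory receptor genes, 1191 genes that are not expected in a vessel, served as background, with a 95th percentile of 3.91 on the log2 scale. Smooth muscle genes marked the tissue as labelled. Their mean log2 intensity ranged over 10.03 to 10.76 in Pr rats and 10.03 to 10.92 in NPr rats, and 0 of 25 differed at the study threshold described below. Myh11, the smooth muscle myosin heavy chain, had log2 intensities of 11.40, 12.17, 11.81, 12.11 and 11.93 in Pr rats, against 11.62, 11.85, 11.40 and 12.37 in NPr rats. The endothelial list had a median log2 difference of -0.03 over 25 genes. Pr animal 1 and NPr animal 3 stood apart by RNA of skeletal muscle fibres, with list levels of 10.01 and 7.80 against at most 5.00 in the other 7 animals. In a whole vessel, fewer cells of a type and less RNA per cell cannot be told apart.

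Type I interferons are secreted proteins that cells release on sensing foreign nucleic acid. They bind a shared receptor whose kinases switch on a transcription factor complex with IRF9 as a part. This complex binds a promoter element known as the interferon-stimulated response element. The genes switched on in this way include the OAS enzymes and the Mx proteins, which act against viruses, the ubiquitin-like modifier ISG15 and the enzymes that attach or remove it. Interferon gamma has a receptor of its own and is known for inducing guanylate-binding proteins, the chemokines CXCL9 and CXCL10 and antigen presentation.

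Groups were compared with limma on log2 intensities. A gene is said to have risen or fallen when its p, adjusted by Benjamini-Hochberg over all genes, was under 0.05. The study threshold asks for a fold change over 1.4 and a p under 0.05 before adjustment, and genes that reached it without passing the adjusted p are described as higher or lower. In Pr compared to NPr rats 39 genes rose (0.201% of all genes tested) and 2 fell (0.0103%). At the study threshold 470 genes were higher (2.43%) and 190 lower (0.982%), so that 71.2% of these genes were higher. The groups did not overlap in any of the 41 genes that passed the adjusted p. These genes were selected on the difference between the same groups, so this is not a separate result. Among all genes 524 (2.71%) had groups apart, 347 higher (1.79%) and 177 lower (0.914%). An unadjusted p under 0.05 was found for 1035 genes (5.35%). With the groups of the titles 19 genes passed the adjusted p and 605 the study threshold, and all 19 are among the 41.

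Of the 41 genes, 28 belong to the lists of interferon receptors and signalling, regulatory factors, sensors and effectors. These lists hold 129 measured genes in all, and all 28 rose. Promoters of risen genes are shown first because the interferon complex is known to act on an element there. The core of that element was searched on both strands as GAAA, any 2 letters (NN) and GAAA again, overlapping matches included, in the 250 bases before and 50 bases after each gene start in RefSeq (GRCr8). It was present in 14 of the 26 risen genes with a promoter sequence (53.8%), against 536 of 14948 genes of the array (3.59%). Among genes higher at the study threshold only, 48 of 323 held it (14.9%), 16 of them in the interferon lists and 32 outside. Among genes lower at that threshold 5 of 141 held it (3.55%). These shares are a description, and a match of letters is not a bound site. The 7 windows below lie before the start, run 5′ to 3′ along the gene, and have every match in capitals.
Irf7, chr1:205800053-205800112, minus strand: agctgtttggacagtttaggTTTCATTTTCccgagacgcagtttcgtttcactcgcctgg
Ifi44, chr2:243303841-243303886, minus strand: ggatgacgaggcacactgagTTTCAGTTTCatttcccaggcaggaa
RGD1563091, chr4:32138959-32139014, minus strand: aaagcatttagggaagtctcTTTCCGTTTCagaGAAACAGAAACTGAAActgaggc
Lgals3bp, chr10:104127859-104127918, minus strand: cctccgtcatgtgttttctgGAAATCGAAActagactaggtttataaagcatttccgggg
Oas1a, chr12:41330405-41330464, plus strand: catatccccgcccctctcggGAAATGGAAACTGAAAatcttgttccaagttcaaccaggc
Oas1b, chr12:41395872-41395931, minus strand: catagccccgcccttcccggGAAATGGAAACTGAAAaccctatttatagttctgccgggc
Epsti1, chr15:59693346-59693400, plus strand: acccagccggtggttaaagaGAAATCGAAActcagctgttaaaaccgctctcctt

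In Oas1a and Oas1b, neighbours on chromosome 12 that are read from opposite strands, the windows have 48 of 60 bases in common (80%), including the whole of 2 overlapping matches. RGD1563091, named Samd9 in RefSeq, has 3 matches in its window. Ifi27, Eif2ak2, Apol9a, Lgals9, Oasl2, RT1-S3 and Dtx3l also held the letters, in Dtx3l after the start. Mx1, Irf9, Oasl, Ube2l6, Slfn3, Slfn13, Masp1, Mmp3, Cxcl13, Mpeg1, Runx1 and Adamtsl2 rose as well and did not have them in this stretch. Several risen genes are neighbours in the GRCr8 annotation. Within 10 genes of each other lie Oas1a, Oas1b and Oas2, Oasl and Oasl2, Mx1 and Mx2, Rtp4 and Masp1, Slfn3 and Slfn13, and Ifi27 and Ifi27l2b, which makes 13 of the 40 risen or fallen genes that could be placed. Paralogs such as the Oas, Mx and Slfn genes have similar sequences, and how far their probes share signal was not tested.

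The interferon ligands themselves were near background. Of 7 measured ligand genes, 6 had both group means under the background percentile, and 0 reached the study threshold. Ifnb1, the type I interferon beta, had log2 intensities of 3.16, 2.93, 3.22, 3.24 and 3.61 in Pr rats, against 3.41, 3.24, 3.20 and 3.05 in NPr rats. Ifng, which encodes interferon gamma, had 2.94, 2.61, 3.75, 2.36 and 2.74 in Pr rats, against 3.07, 2.42, 2.68 and 2.30 in NPr rats. Levels of both ligands overlapped between the groups at a height where the array reads little signal.

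Among the 20 receptor and signalling genes, 5 were higher at the study threshold and 1 of them rose. The receptor subunit Ifnar1 had a log2 difference of 0.14 (SE 0.12), with values of 8.5 to 8.97 in Pr rats, against 8.47 to 8.66 in NPr rats. Stat2, a part of the type I complex, had 7.51, 8.13, 8.77, 8.01 and 7.85 in Pr rats, against 6.90, 7.23, 7.23 and 7.52 in NPr rats. This is a difference of 0.83 (SE 0.20, adjusted p = 0.18), and the lowest Pr animal lay just below the highest NPr animal. Usp18, which removes ISG15 from proteins and restrains the type I receptor, had 7.02, 6.49, 6.71, 6.59 and 5.94 in Pr rats, against 5.33, 4.90, 5.62 and 4.66 in NPr rats. Usp18 rose by 1.42 (SE 0.25, adjusted p = 0.0347), and its groups did not overlap.

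Of 9 interferon regulatory factors, 4 were higher at the study threshold and 2 rose, with a list median of 0.56 against -0.02 over all genes. Irf7, the factor that amplifies type I interferon production, had log2 intensities of 10.68, 8.83, 9.87, 9.88 and 9.08 in Pr rats, against 6.93, 6.92, 6.93 and 6.71 in NPr rats. Its difference was 2.80 (SE 0.40, adjusted p = 0.0054). The NPr animals were close together and the lowest Pr animal stood far above them. Irf9, the DNA-binding part of the type I complex, had 7.92, 8.18, 8.49, 8.26 and 8.0 in Pr rats, against 6.83, 6.80, 6.74 and 7.19 in NPr rats, a rise of 1.28 (SE 0.15, adjusted p = 0.00136). Irf8 and Irf5, factors of myeloid cells, had differences of 0.66 (SE 0.18, adjusted p = 0.302) and 0.56 (SE 0.18, adjusted p = 0.488).

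The sensors of viral nucleic acid moved the same way, with 6 of 15 higher at the study threshold, 3 risen and a list median of 0.39. Dhx58 encodes LGP2, a regulator of RNA sensing. It had log2 intensities of 6.21, 6.53, 6.76, 6.38 and 6.0 in Pr rats, against 4.30, 4.49, 4.75 and 5.17 in NPr rats (difference 1.70, SE 0.18, adjusted p = 0.000468). Ddx58, which encodes the RNA sensor RIG-I, rose by 0.80 (SE 0.14, adjusted p = 0.0335), and Eif2ak2, the RNA-activated kinase PKR that halts translation, by 0.65 (SE 0.11, adjusted p = 0.024). Ddx60, a helper of RIG-I, had a difference of 1.64 (SE 0.31) and missed the threshold narrowly (adjusted p = 0.05, rounded). Ifih1, which encodes the sensor MDA5, had a difference of 0.39 (SE 0.13, adjusted p = 0.566).

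Of 85 interferon-stimulated effectors, 22 rose, 52 were higher at the study threshold and 0 were lower, with a median log2 difference of 0.78. The smallest p of the comparison belonged to Ifi27l2b, one of a family of small interferon-induced proteins, which had log2 intensities of 7.24, 7.24, 7.10, 7.10 and 6.80 in Pr rats, against 4.96, 4.55, 5.25 and 4.91 in NPr rats (difference 2.18, SE 0.14, adjusted p = 2.08e-06). Oas1a, an oligoadenylate synthetase that activates RNA breakdown, had 7.53, 7.14, 7.30, 6.96 and 6.62 in Pr rats, against 4.94, 4.23, 4.46 and 4.85 in NPr rats. Its rise of 2.49 (SE 0.23, adjusted p = 0.000212) had the second smallest p of all genes. Oas1b rose by 2.44 (SE 0.27, adjusted p = 0.000589) and Oas2 by 1.84 (SE 0.20, adjusted p = 0.000468). Oasl and Oasl2, relatives of the synthetases, rose by 1.4 and 1.55.

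Mx2, a dynamin-like GTPase active against viruses, had log2 intensities of 8.11, 7.80, 8.99, 7.88 and 7.33 in Pr rats, against 5.11, 5.20, 5.70 and 5.73 in NPr rats. Its rise was 2.59 (SE 0.27, adjusted p = 0.000457), and its neighbour Mx1 rose by 2.11 (SE 0.29, adjusted p = 0.00446). Isg15 had 8.5, 7.54, 8.51, 8.05 and 7.43 in Pr rats, against 5.70, 5.79, 5.85 and 6.15 in NPr rats, a rise of 2.13 (SE 0.27, adjusted p = 0.00223). Ube2l6, the enzyme that conjugates ISG15 to proteins, rose by 0.90 (SE 0.16, adjusted p = 0.0411). Uba7, the activating enzyme, had a difference of 0.90 that did not pass the adjusted p. Slfn3, a Schlafen gene named Slfn4 in RefSeq, had 7.40, 7.74, 8.31, 8.24 and 6.52 in Pr rats, against 4.77, 4.66, 4.64 and 5.12 in NPr rats, and rose by 2.84 (SE 0.36, adjusted p = 0.00196). Lgals3bp and Lgals9, a galectin-binding protein and a galectin, rose by 1.62 and 1.19, and the Ly6 family member Ly6e by 1.25.

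**Figure D1:**
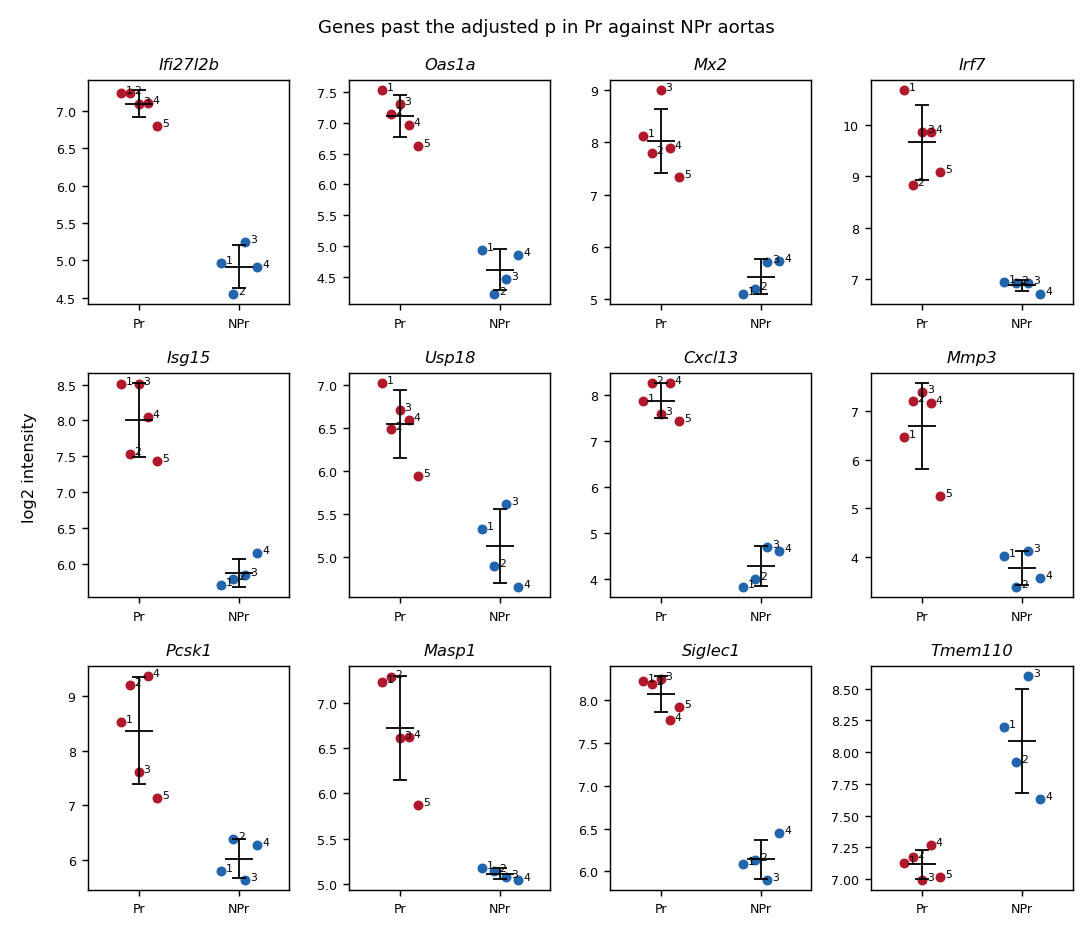
Log2 intensity (vertical axis) of 12 genes that passed the adjusted p, in each Pr and NPr aorta. Points are animals with their number, and black marks are the mean and SD of 5 Pr and 4 NPr animals. In all 12 the groups do not overlap, with Pr above NPr in 11 and below it in Tmem110.

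The gene with the largest fold change was outside the interferon lists. Cxcl13, the chemokine that draws B cells into lymphoid follicles, had log2 intensities of 7.87, 8.25, 7.58, 8.26 and 7.43 in Pr rats, against 3.83, 3.99, 4.70 and 4.61 in NPr rats. The rise was 3.60 (SE 0.46, adjusted p = 0.00206), or 12.1-fold, with 2 NPr animals close to background. Of 34 chemokines, 5 were higher at the study threshold and 1 rose. The eosinophil chemokine Ccl11 had a difference of 1.79 (SE 0.46, adjusted p = 0.229) and Ccl21, which guides cells to lymph nodes, one of 1.09 (SE 0.43, adjusted p = 0.773). Markers of B cells did not accompany Cxcl13 in all animals. The B and plasma cell list stood at 6.04 in Pr animal 5 and between 4.32 and 4.57 in the other Pr animals, against 4.23 to 4.77 in NPr rats, and 1 of its 18 genes, Cd22, reached the study threshold. The list of lymph node stroma and lymphatics, which contains Cxcl13, Ccl21 and Pdpn, had a median of 0.34 over 12 genes with these 3 higher, and whether adhering lymphoid tissue had a part was not tested.

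Of the list of 31 matrix metalloproteinases and inhibitors, 2 genes rose. Mmp3, stromelysin 1, which degrades several matrix proteins and activates other proteases, had log2 intensities of 6.48, 7.21, 7.39, 7.17 and 5.25 in Pr rats, against 4.03, 3.38, 4.12 and 3.56 in NPr rats. It rose by 2.93 (SE 0.44, adjusted p = 0.00798), but 2 NPr animals were below the background percentile, so the size is not exact. Adamtsl2, a secreted glycoprotein of the microfibril network, had 6.08, 7.56, 6.84, 7.35 and 6.67 in Pr rats, against 5.08, 5.25, 4.93 and 5.50 in NPr rats, a rise of 1.71 (SE 0.32, adjusted p = 0.0422). Mmp2 and its activator Mmp14 had differences of 0.77 (SE 0.22, adjusted p = 0.333) and 0.65 (SE 0.19, adjusted p = 0.398), and the inhibitor Timp1 one of 0.81 (SE 0.33, adjusted p = 0.804). Over the whole list of 31 genes 6 were higher and the median was 0.16, which became 0.02 without NPr animal 3 and 0.03 without Pr animal 4. It was 0.08 without NPr animal 1 or Pr animal 2. Collagen and elastic fibre genes had the same median of 0.16, with 4 of 37 higher (Col6a1, Col6a2, Fbln1 and Vcan) and 0 risen, and Col6a6 was lower by 0.75 (SE 0.15, adjusted p = 0.0891).

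Complement genes made another group. Of 33 measured, 17 were higher at the study threshold, 0 lower and 2 risen, with a median of 0.59. Masp1, a protease of the lectin pathway, had log2 intensities of 7.23, 7.28, 6.62, 6.63 and 5.87 in Pr rats, against 5.18, 5.14, 5.07 and 5.05 in NPr rats. It rose by 1.62 (SE 0.25, adjusted p = 0.00981), while its NPr values lay within a narrow band. The protease C2 had 8.75, 8.58, 8.78, 7.98 and 7.96 in Pr rats, against 7.08, 7.33, 7.23 and 6.87 in NPr rats, a rise of 1.29 (SE 0.24, adjusted p = 0.046). C4b, C6, Cfb and C1s, components of the classical, terminal and alternative pathways, had differences of 0.87, 1.31, 1.59 and 1.36, with adjusted p from 0.092 to 0.219. In Cfb, Pr animal 5 at 8.34 was close to NPr animal 4 at 8.32, and for C1s it lay below NPr animal 4.

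Many macrophage genes were higher, as were many of complement and of the interferon effectors. Of 23, 13 were higher at the study threshold and 1 rose, with a median of 0.62. Siglec1, the sialoadhesin of tissue macrophages and itself induced by interferon, had log2 intensities of 8.23, 8.19, 8.25, 7.78 and 7.92 in Pr rats, against 6.08, 6.13, 5.90 and 6.45 in NPr rats (difference 1.93, SE 0.21, adjusted p = 0.000457). Mpeg1, a pore-forming protein of macrophages, rose by 1.14 (SE 0.21, adjusted p = 0.0373), and Runx1, a transcription factor of blood cells, by 1.11 (SE 0.19, adjusted p = 0.0292). The lysosomal marker Cd68 had 8.87, 9.01, 9.35, 8.66 and 8.22 in Pr rats, against 7.68, 7.85, 8.17 and 7.92 in NPr rats (difference 0.92, SE 0.19, adjusted p = 0.092). The scavenger receptor Cd163 had a difference of 1.03 (SE 0.29, adjusted p = 0.312). The list level ranged over 7.40 to 8.41 in Pr rats and 7.0 to 7.26 in NPr rats, without overlap. Lists of mast cells and granulocytes had medians of -0.01 and 0.02 with 0 genes at the study threshold. The medians of the macrophage, complement and interferon effector lists were all positive. Whether these genes varied together across animals, and what part macrophages had in the other results, was not tested.

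Antigen presentation was higher in both classes. RT1-S3, a class I histocompatibility gene, had log2 intensities of 8.69, 8.66, 9.54, 8.69 and 8.49 in Pr rats, against 7.07, 7.19, 7.42 and 7.40 in NPr rats, and rose by 1.55 (SE 0.20, adjusted p = 0.00259). Of 27 class I genes 9 were higher, with a median of 0.40, among them the peptide transporter Tap1 at 1.01 (SE 0.30, adjusted p = 0.36). Of 11 class II genes 7 were higher, with a median of 0.59 and no gene risen. RT1-Ba, a class II alpha chain, had 7.39, 7.64, 7.67, 6.96 and 7.39 in Pr rats, against 6.49, 6.52, 6.94 and 6.81 in NPr rats (difference 0.72, SE 0.17, adjusted p = 0.155). The class II transactivator Ciita had a difference of 0.54 (SE 0.16, adjusted p = 0.413). With the groups of the titles 0 class II genes, 9 complement genes and 3 macrophage genes reached the study threshold, against 33 interferon-stimulated effectors. With those groups 12 effectors and 1 sensor of viral nucleic acid rose, and 5 class I genes and 1 chemokine were higher. In the fatty acid synthesis list 4 genes were lower with them, and in the brown fat list 5.

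**Figure D2:**
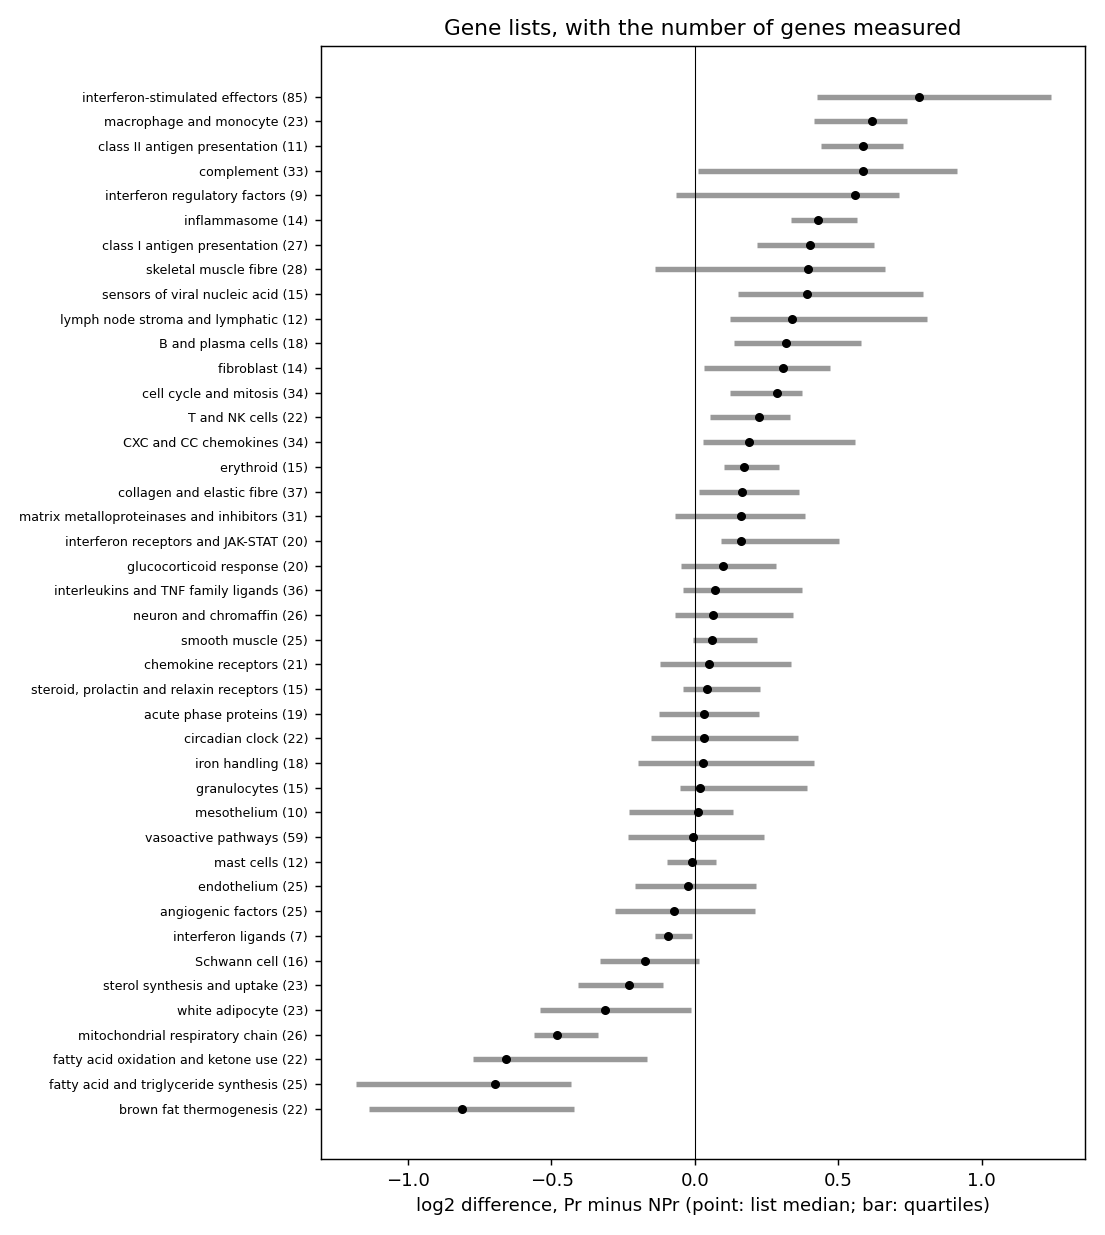
Median (point) and quartiles (ends of the bar) of the log2 differences, Pr minus NPr, of the genes in each of 42 lists, with the number of genes measured. Interferon-stimulated effectors have the highest median, 0.78, and the brown fat list the lowest, -0.81.

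Pr animal 3 stood apart in a set of genes known to be induced by interferon gamma. In this animal 106 genes were more than 1 above all 8 other animals on the log2 scale, 18 of them in the interferon lists. Pr animal 1 had 183 such genes and Pr animal 5 had 33, with 0 in the interferon lists in each. The genes named in this paragraph, other than Cxcl9, were chosen after their values were seen. Cxcl10, a chemokine for activated T cells, was at 9.19 in Pr animal 3 and at 4.68, 4.33, 4.26 and 4.35 in the other Pr animals, against 4.36, 4.05, 3.70 and 4.57 in NPr rats. The guanylate-binding protein gene Gbp5 was at 10.97 in Pr animal 3, between 6.73 and 6.99 in the other Pr animals and between 6.56 and 6.85 in NPr rats. Gbp2, Ubd and Igtp had the same form, and for Cxcl9 the animal was at 10.27 against at most 8.0 elsewhere. Without Pr animal 3 the median of the effector list was 0.55 with 16 genes risen and 44 higher, and that of class I genes 0.27 with 4 higher. The regulatory factors had a median of 0.29 without this animal. Of 23 macrophage genes 6 were then higher at the threshold.

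**Figure D3:**
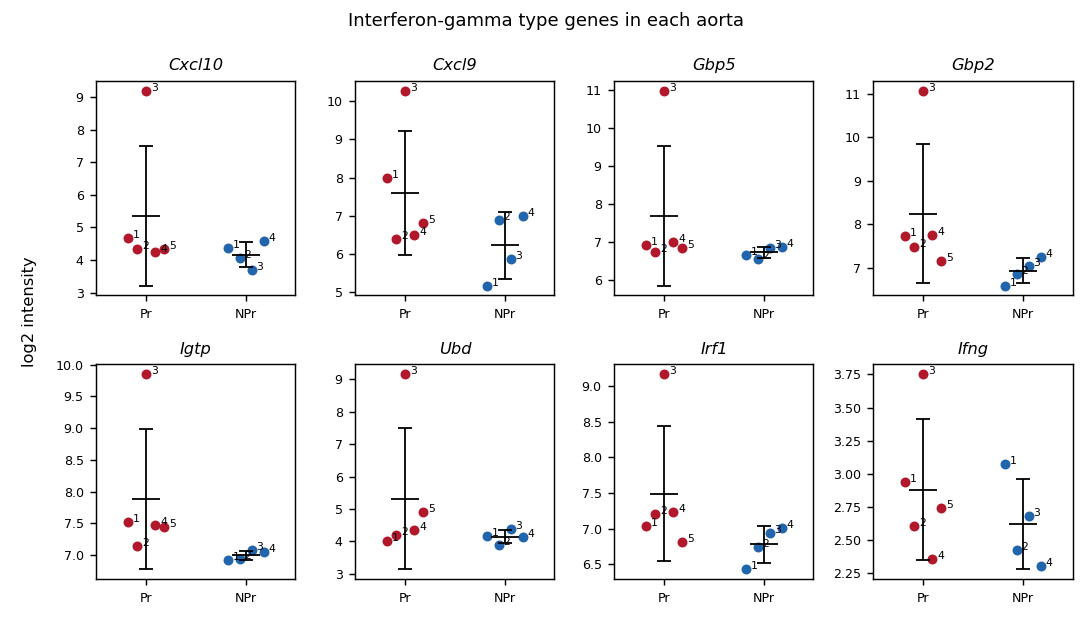
Log2 intensity (vertical axis) of 8 genes linked to interferon gamma in each Pr and NPr aorta. Points are animals with their number, and black marks are the mean and SD. Pr animal 3 lies far above the rest for the first 7 genes, with Cxcl10 at 9.19, while Ifng itself is at 3.75.

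Pcsk1, proprotein convertase 1, which cuts hormone precursors in endocrine cells, rose outside all lists. It had log2 intensities of 8.52, 9.20, 7.61, 9.36 and 7.13 in Pr rats, against 5.80, 6.38, 5.64 and 6.26 in NPr rats, a rise of 2.35 (SE 0.42, adjusted p = 0.0347). LOC100911190, a gene with 4 probes on the array, rose by 2.26 (SE 0.36, adjusted p = 0.0122), and Apol9a, an apolipoprotein L gene, by 0.81 (SE 0.12, adjusted p = 0.0057). Rnase1l2, a ribonuclease gene, had a large difference of 2.85 (SE 0.82) that did not pass the adjusted p (0.352), with values of 6.42 to 8.44 in Pr rats, against 3.19 to 5.15 in NPr rats.

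Only Tmem110 and LOC100362710 fell. Tmem110, named Stimate in RefSeq, encodes a membrane protein that supports store-operated calcium entry. It had log2 intensities of 7.13, 7.17, 7.0, 7.27 and 7.02 in Pr rats, against 8.19, 7.92, 8.60 and 7.63 in NPr rats, a difference of -0.97 (SE 0.18, adjusted p = 0.0422). LOC100362710, named Tiam2 in RefSeq, an activator of the GTPase Rac, had 4.81, 5.58, 5.18, 5.50 and 5.81 in Pr rats, against 6.74, 6.32, 6.45 and 6.06 in NPr rats, a difference of -1.02 (SE 0.19, adjusted p = 0.0424). Both calls were lost when any of several single animals was left out.

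Of the 10 genes with the largest differences in the lower direction among those at the study threshold, 5 were in the lists of fat genes, and 0 passed the adjusted p. Ucp1, the uncoupling protein that makes heat in brown fat, had log2 intensities of 10.81, 7.24, 7.95, 8.31 and 10.72 in Pr rats, against 11.87, 11.28, 12.31 and 9.06 in NPr rats. The difference was -2.13 (SE 0.89, adjusted p = 0.848). Here Pr animals 1 and 5 reached well above the lowest NPr animal, number 4. Pnpla3, a lipase of lipogenic tissue, had 8.39, 6.44, 7.0, 7.17 and 8.30 in Pr rats, against 10.003, 9.75, 10.05 and 7.94 in NPr rats, with NPr animal 4 again low. The brown fat list had 5 of 22 genes lower and a median of -0.81, and fatty acid and triglyceride synthesis 9 of 25 lower and 1 higher with a median of -0.70.

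Gpam, the first enzyme of triglyceride synthesis, kept the groups nearly apart, with 8.81, 7.95, 8.03, 8.20 and 8.56 in Pr rats, against 10.19, 10.16, 10.36 and 8.75 in NPr rats (difference -1.56, SE 0.33, adjusted p = 0.103). Acly, Me1 and Mlxipl, which supply and drive fatty acid synthesis, had differences of -1.57, -1.47 and -1.53. Aspg, an asparaginase gene, had a difference of -1.94 (SE 0.45, adjusted p = 0.158), and Otop1, a proton channel found in brown fat, one of -1.95 (SE 0.62, adjusted p = 0.455). Hamp, which encodes the iron hormone hepcidin, had 4.54, 4.48, 4.79, 4.03 and 5.43 in Pr rats, against 4.90, 6.52, 6.61 and 7.07 in NPr rats (difference -1.62, SE 0.39, adjusted p = 0.184), and this gene did not follow NPr animal 4. Ttc25, named Odad4 in RefSeq and known for a part in the arms that move cilia, had 5.13, 3.91, 4.0, 4.34 and 4.86 in Pr rats, against 6.80, 6.43, 6.82 and 4.71 in NPr rats (difference -1.74, SE 0.43, adjusted p = 0.205). Chrnb4, a nicotinic acetylcholine receptor subunit of neurons, had a difference of -1.61 (SE 0.75, adjusted p = 0.926), and Fam57b, named Tlcd3b in RefSeq, one of -1.60 (SE 0.66, adjusted p = 0.826). In all 3 genes NPr animal 4 was the lowest of its group and lay within the range of the Pr rats.

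The amount of adipose RNA varied along with these genes. The white adipocyte list, 23 genes, had levels of 9.78, 8.51, 9.0, 8.30 and 9.49 in Pr rats, against 9.60, 9.36, 9.87 and 8.23 in NPr rats, so Pr animals 1 and 5 and NPr animals 1, 2 and 3 were the high ones. Its median difference was -0.31 (-0.48 without Pr animal 1 or 5), with 1 gene lower, the glucose transporter Slc2a4. Adipoq, the adipocyte hormone adiponectin, had a difference of -0.01 (SE 0.31) and the lipid droplet protein Plin1 one of -0.33 (SE 0.51). Respiratory chain genes had a median of -0.48 with 0 of 26 at the study threshold. Without NPr animal 4 the brown fat median was -1.29 with 10 genes lower, that of fatty acid synthesis -1.01 with 13 lower and that of white adipocytes -0.72 with 4 lower. Without Pr animal 1 or 5 the brown fat medians were -1.04 and -1.09, with 6 and 7 genes lower. Those of fatty acid synthesis were -0.87 and -0.86, with 11 and 10 lower. Some other removals made the differences smaller. Without NPr animal 3 the medians were -0.46 for brown fat with 3 genes lower, -0.48 for fatty acid synthesis with 6 lower and -0.05 for white adipocytes with 0 lower. Without NPr animal 1 that of brown fat was -0.51 with 3 lower and that of white adipocytes -0.12 with 0 lower. The white adipocyte median was -0.14 without Pr animal 2 and -0.09 without Pr animal 4, and the brown fat list had 3 genes lower without NPr animal 2 or Pr animal 2, 3 or 4. The part of adipose tissue in the sample in these differences was not tested.

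Some genes of fat use went the other way. Cpt1a, which passes fatty acids into mitochondria, had a difference of 0.73 (SE 0.24, adjusted p = 0.478), and Angptl4, an inhibitor of lipoprotein lipase, one of 0.87 (SE 0.39, adjusted p = 0.899). Both were higher at the study threshold, while the median of the list of 22 oxidation genes was -0.66.

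**Figure D4:**
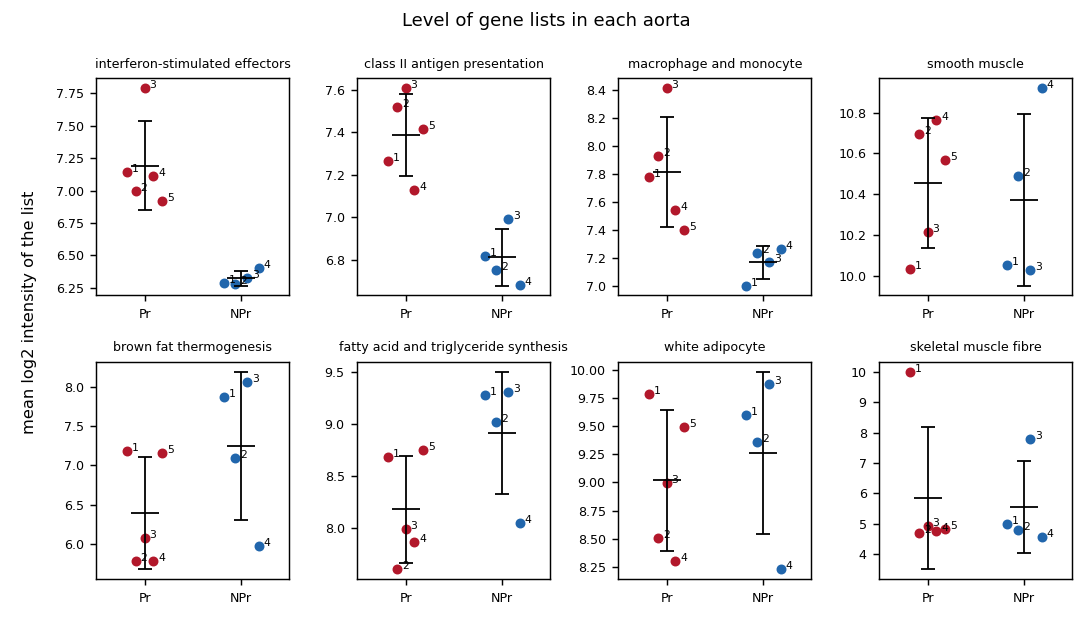
Mean log2 intensity (vertical axis) of 8 gene lists in each Pr and NPr aorta. Points are animals with their number, and black marks are the mean and SD. Interferon-stimulated effectors, class II genes and macrophage genes lie higher in Pr, without overlap. In the brown fat, fatty acid synthesis and white adipocyte lists Pr animals 1 and 5 are high and NPr animal 4 is low, and skeletal muscle RNA is high in Pr animal 1 and NPr animal 3.

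Of 22 clock genes, 4 were higher and 2 lower, against 2.43% and 0.982% of all genes. None passed the adjusted p, and with the groups of the titles 1 was higher and 0 lower. The clock is a loop in which CLOCK or NPAS2 with BMAL1 bind the E-box CACGTG and switch on their own repressors. Tef, a clock-controlled transcription factor, had log2 intensities of 6.41, 6.56, 6.84, 6.77 and 6.67 in Pr rats, against 5.92, 5.86, 5.91 and 6.42 in NPr rats (difference 0.62, SE 0.14, adjusted p = 0.148). Nr1d1, the repressor REV-ERB alpha, had 9.12, 9.54, 8.92, 9.58 and 8.65 in Pr rats, against 7.83, 7.96, 7.89 and 8.49 in NPr rats (difference 1.12, SE 0.30, adjusted p = 0.261). The groups did not overlap in Nr1d1 and touched in Tef, where NPr animal 4 reached the lowest Pr animal, and NPr animal 4 was the nearest to the Pr rats in both genes. Dbp and Nr1d2, outputs of the same loop, had differences of 0.73 and 0.54, against -0.55 for the repressor Cry1 and -0.60 for Npas2. The hour at which the animals were killed is not given in the sources used here. An E-box was found in the promoter of 5 of 18 clock genes with a sequence (27.8%), against 8.34% of array genes. This is a share of known clock genes and does not bear on Pr compared to NPr rats. The share was 3.85% in risen genes, 5.88% in those higher at the study threshold only and 9.22% in those lower. A match of letters is not a bound site. The windows of the 2 higher clock genes with an E-box are shown with it in capitals.
Tef, chr7:115206605-115206658, plus strand: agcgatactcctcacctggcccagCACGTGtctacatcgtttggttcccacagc
Nr1d1, chr10:84229616-84229669, minus strand: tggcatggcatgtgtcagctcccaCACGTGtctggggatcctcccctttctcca

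Growth factors and regulators of vessel tone were also read, beside 2.43% of all genes that were higher at the study threshold. Of 25 angiogenic factors 3 were higher. Figf, vascular endothelial growth factor D, had log2 intensities of 6.89, 6.63, 6.92, 6.98 and 5.87 in Pr rats, against 5.69, 5.52, 5.07 and 5.48 in NPr rats (difference 1.22, SE 0.29, adjusted p = 0.175). Angpt4, a ligand of the Tie2 receptor, and Esm1, a proteoglycan of endothelial cells, had differences of 1.08 and 1.02. Of 59 genes of vasoactive pathways 2 were higher, near the share of all genes, with a list median of -0.01. They were the natriuretic peptide gene Nppc (1.01, SE 0.36, adjusted p = 0.606) and the adrenergic receptor Adra2a (0.58, SE 0.22, adjusted p = 0.67). Nos3, the endothelial nitric oxide synthase, had a difference of -0.10 (SE 0.16). The angiotensin receptor Agtr1a had a difference of 0.45 (SE 0.14, adjusted p = 0.436), under the fold threshold. Of the steroid, prolactin and relaxin receptors 1 of 15 was higher, the oestrogen receptor Esr1 (0.54, SE 0.25, adjusted p = 0.917).

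The same 41 genes were read in ExpPE rats. Both pregnant groups were set against the same 4 NPr animals, so their differences are not independent. In ExpPE compared to NPr rats 19 of the 41 passed the adjusted p (0.0982% of all genes did), and in ExpPE compared to Pr rats 0 did (smallest adjusted p = 0.574), while 14 had an unadjusted p under 0.05 in the fit. Over all genes, 1642 (8.48%) had such a p for ExpPE compared to Pr. The 41 genes were chosen for their difference between Pr and NPr rats, which tends to place Pr farther from NPr than ExpPE. The 14 therefore cannot be set against that share as a sign that the pregnant groups differ. Irf7 had a difference from NPr of 3.06 in ExpPE and 2.80 in Pr rats, and Ifi27l2b one of 1.78 in ExpPE and 2.18 in Pr rats. For Cxcl13 the values were 2.87 in ExpPE and 3.60 in Pr rats, for Usp18 0.66 in ExpPE and 1.42 in Pr rats, and for LOC100911190 1.23 in ExpPE and 2.26 in Pr rats. The effector list had a level between 6.69 and 7.06 in ExpPE rats, between 6.92 and 7.79 in Pr rats and between 6.28 and 6.40 in NPr rats, so both pregnant groups lay wholly above the non-pregnant one whichever labels are right.

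**Figure D5:**
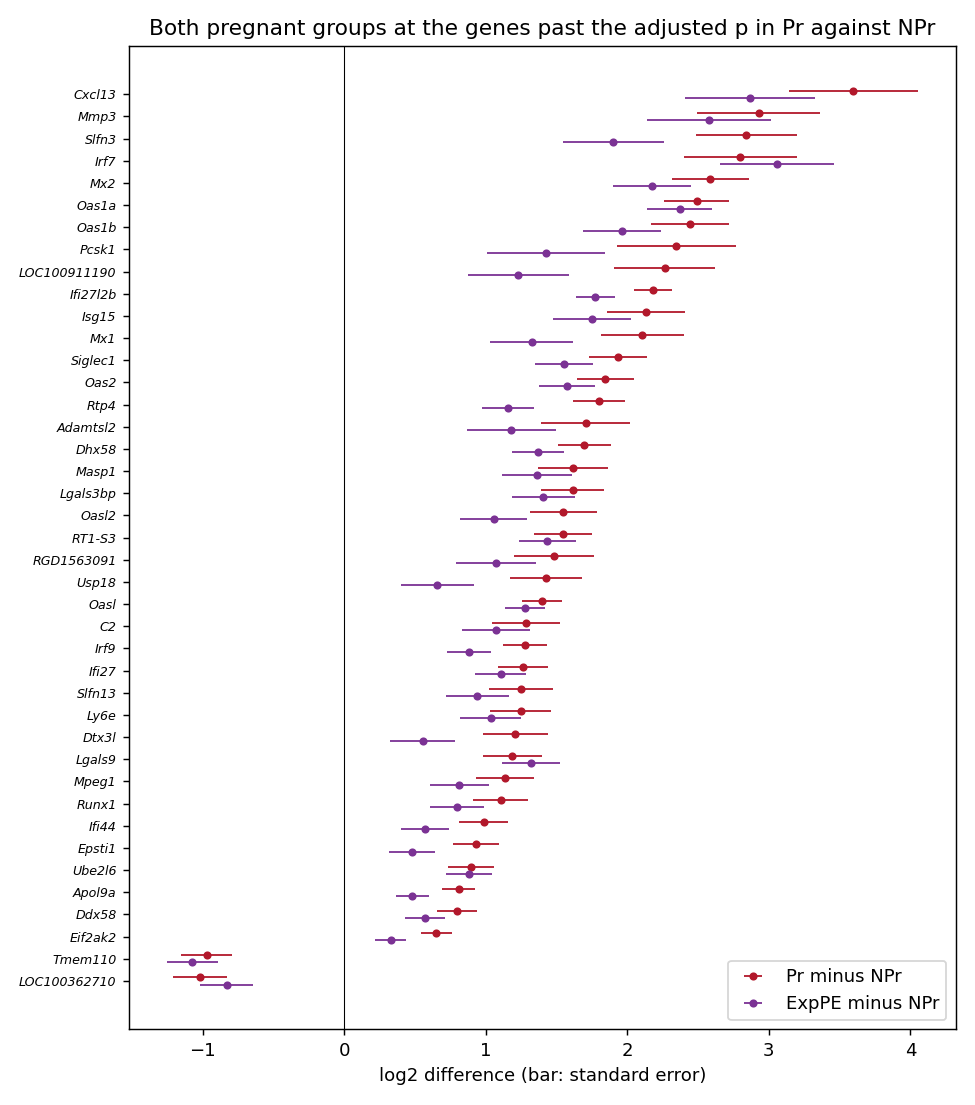
Log2 difference from NPr (horizontal axis, with its standard error) of the 41 genes that passed the adjusted p in Pr compared to NPr, for Pr and ExpPE rats. Both groups share the 4 NPr animals. The 39 risen genes are above 0 in both groups, from Cxcl13 at 3.60 in Pr and 2.87 in ExpPE downwards, and the 2 fallen genes are below 0 in both.

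Leaving out single animals showed which calls were firm. Of the 41 genes, 22 passed the adjusted p in all 9 fits that each lacked 1 animal, among them Ifi27l2b, Oas1a, Mx2, Siglec1, Irf9, Irf7, Cxcl13, Isg15, RT1-S3, Mmp3 and Masp1. The other 19 lost it in at least 1 fit. LOC100911190 lost it in 1, and each of the rest in 6 to 8 of the 9 fits. The rest include Usp18, Eif2ak2, Ddx58, Ly6e, Lgals9, Ifi44, Epsti1, Ube2l6, Slfn13, Dtx3l and RGD1563091. They also include Pcsk1, Adamtsl2, C2, Mpeg1, Runx1, Tmem110 and LOC100362710. Of the effector list, 14 genes rose without NPr animal 1 or 2 or Pr animal 1, 2 or 4. In the main fit 22 of them rose, and without Pr animal 5 there were 25. Of the sensors 1 rose without NPr animal 1, 2 or 3 or Pr animal 1, 3 or 4, and 4 without Pr animal 5. The count at the study threshold depended on NPr animal 4. Without this animal 500 genes were higher and 471 lower, so that 51.5% were higher. Its white adipocyte level was the lowest of the NPr rats (8.23), and Pr animals 4 and 2 were also low (8.30 and 8.51). The part of adipose RNA in the count was not tested. The array names carry a code with a letter and a number whose meaning is not given in the sources used here. The Pr arrays have letters of their own, so letter and group cannot be told apart, while each of the 3 numbers holds both groups. All 41 genes kept their sign within each number, which groups without overlap fix in advance, so it adds no support. With the number as a term in the fit 35 of the 41 passed the adjusted p.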

How the data were processed

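RNA of 14 abdominal aortas (5 Pr, 4 NPr, 5 ExpPE) was measured on Affymetrix Rat Gene 1.1 ST arrays. The authors deposited 1 intensity per gene and array, from robust multichip averaging (RMA, version not given in the sources used here) with quantile normalization and probes regrouped by gene. They are on the linear scale, and their log2 was taken with no filter. The authors' columns of fold changes, p-values and q-values hold their own comparisons and were not used. All per-animal columns were used (0 left out). Quantile normalization forces arrays to 1 distribution, and a gene near background has an understated fold change. Precision is limited by the number of arrays.

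A mean per group was fitted to all 14 arrays with limma 3.58.1 in R 4.3.3 (prior variance following intensity, 11 residual degrees of freedom), with Benjamini-Hochberg adjustment over 19357 genes. A paired statistic is named in the methods without a pairing variable, so pairs were fitted only as an alternative. The p-values measure the spread between animals. The fit was tested on simulated data. Python 3.11.15, pandas 2.3.3, numpy 2.4.6 and matplotlib 3.10.9 were used for tables and figures.

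The comparison and the 42 gene lists were chosen with earlier results of these data known. List levels are means of log2 intensities. Named were all genes past the adjusted p, the 10 largest folds in each direction at the study threshold, up to 6 genes of smallest p per list, defining cell markers, and the 5 smallest p in each direction outside the lists. Other genes were named after their values were seen, to describe a list or an animal. Symbols are those of the files. Of 39 risen genes, 26 had a RefSeq promoter entry (GRCr8). Alternatives were other prior variances, array weights, filters, normalization, the groups of the titles and each animal left out. Some results are not reported here.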

Additional observations from a re-analysis of the deposited data

Results flagged for a closer look

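For each list level and each of the 41 genes that passed the adjusted p, the highest or lowest animal was looked at where its gap to the next animal took up an unusually large part of the group's range. Of 166 such groups 20 met this rule, where chance gives about 1 in 20. They were 12 of 84 list levels and 8 of 82 gene values.

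Pr animal 3 lay above the other Pr animals in the mean log2 intensity of the sensors of viral nucleic acid (7.09), the interferon-stimulated effectors (7.79), class I antigen presentation (7.82), acute phase proteins (5.07), glucocorticoid response (8.36) and mesothelium (4.82). It was also above the others in the log2 intensity of RT1-S3 (9.54), Dtx3l (9.07), Ifi44 (7.95) and Eif2ak2 (8.29).

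Pr animal 5 was above the other Pr animals in B and plasma cell genes (6.04) and in neuron and chromaffin genes (5.44), and below them in LOC100911190 (5.79) and Slfn13 (7.56). Skeletal muscle fibre genes were high in Pr animal 1 (10.01) and in NPr animal 3 (7.80). Among NPr rats, animal 1 was high in interferon ligands (3.69) and low in Ube2l6 (5.29), animal 2 was high in sterol synthesis and uptake (7.19), and animal 4 was low in Irf7 (6.71).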

How the results depend on the processing

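The 41 genes past the adjusted p in limma became 211 with array weights, 19 with the groups of the titles and 19 without Pr animal 1 and NPr animal 3, the animals with the most skeletal muscle RNA. Leaving out 1 animal gave 23 genes (without NPr animal 2) to 62 (without Pr animal 5). It also gave 24 without NPr animal 1 or Pr animal 1, 2 or 4, and 26 without NPr animal 3. The 660 genes at the study threshold became 1022 with array weights, and leaving out 1 animal gave 524 (without NPr animal 1) to 971 (without NPr animal 4). Other prior variances, filters and normalizations the number in the array code as a term and a replicate block kept both counts within 1.5 times. With arrays centred on their median 63.6% of genes at the study threshold were higher, and with array weights 55.2%, against 71.2%. The array code term, the replicate block and the removal of both muscle-rich animals were chosen after seeing the data. With the column-name groups, 0 of the 41 genes changed sign, which groups without overlap fix in advance for the removals of animals. Of 42 list medians, 19 changed sign in at least 1 setting, 15 of them with a main median within 0.1 of 0. The other 4 were skeletal muscle fibre (-0.76 without Pr animal 1, against 0.39), B and plasma cells (-0.08 without Pr animal 5, against 0.32), erythroid (-0.09 without Pr animal 1, against 0.17) and Schwann cells (0.03 over genes above the median intensity, against -0.17). The replicate block used the numbers in the sample titles, matched to the arrays by their values, and gave 53 genes past the adjusted p, 37 of them among the 41, and 819 at the study threshold. Deviations of same-numbered Pr and NPr arrays correlated at -0.14 to 0.40 over 4 pairs, and those of the 16 other pairs at -0.45 to 0.56. Not every array correlated best with its own number. With 4 pairs this cannot tell whether the animals were paired. The number of arrays and signal near background limit the precision. The causes of these changes were not tested.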
